A study of Mus musculus with 16 samples.

Results

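The genes described here were 8 long noncoding RNAs (lncRNAs) of mouse macrophages, chosen by name: Neat1, Malat1, Mir155hg, Gas5, Snhg1, Snhg12, Snhg15 and Ptgs2os2. They were chosen with earlier results of these data known. All 8 were matched by symbol to an Ensembl identifier in the count table of 55487 genes, and all 8 were among the 12372 genes tested. RNA-seq was performed on bone marrow-derived macrophages (BMDMs) from wild-type (WT) Balb/c mice at 8 weeks of age, exposed to conditioned medium (CM) of 4T1 cells, a mouse mammary tumor line, in 16 samples of 6 groups. The groups were DMEM, the plain culture medium, with 2 samples, DMEM with ruxolitinib (DMEM + Rux) with 3, CM with 3, CM with ruxolitinib (CM + Rux) with 3, and CM with ruxolitinib and the IκB kinase (IKK) inhibitor IKK-16 (CM + Rux + IKK-16) with 3. In CM, ruxolitinib was at 0.5 μM and IKK-16 at 0.8 μM. A further 2 samples of CM + Rux carried a label of 2 h where the other 3 carried 4 h. The study's methods give 4 h as the length of treatment before RNA was taken, while what the 2 h label counts from, and the dose of ruxolitinib in DMEM, were not stated in the sources used here. Ruxolitinib blocks JAK1 and JAK2, kinases that act upstream of STAT factors, while IKK-16 blocks the kinases that set NF-κB free. These were cultured cells without a genetic change, and nothing in the labels says that samples of a group came from separate mice, so the p-values measure the spread between these samples, which may be technical.

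LncRNA genes give transcripts that code for no known protein, and many of these are spliced and polyadenylated much like messenger RNAs. Neat1 is the scaffold of paraspeckles, nuclear bodies that hold RNA and RNA-binding proteins, and Malat1 is an abundant RNA of nuclear speckles. Mir155hg carries the hairpin from which the microRNA miR-155 is cut, an RNA known for its induction in activated macrophages. Gas5, Snhg1, Snhg12 and Snhg15 are host genes: their introns release small nucleolar RNAs (snoRNAs), which guide chemical modification of ribosomal RNA, and their spliced transcripts are known to be degraded quickly during translation. Ptgs2os2, also called lincRNA-Cox2, is an inducible lncRNA near Ptgs2, the gene of the prostaglandin-producing enzyme COX-2, and is best known from macrophages given bacterial products.

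On the mouse build GRCm38, Neat1 (ENSMUSG00000092274) lies on the minus strand at chr19:5824708-5845478 and Malat1 (ENSMUSG00000092341) at chr19:5795690-5802672, 22035 bases apart. Mir155hg (ENSMUSG00000097418) lies at chr16:84703167-84715245, Gas5 (ENSMUSG00000053332) at chr1:161034422-161038539, Snhg1 (ENSMUSG00000108414) at chr19:8723475-8726443 and Snhg12 (ENSMUSG00000086290) at chr4:132308623-132311024, all on the plus strand. Snhg15 (ENSMUSG00000085156) lies on the minus strand at chr11:6525591-6528779. Ptgs2os2 (ENSMUSG00000097754) lies on the minus strand at chr1:150159043-150164948, and 50815 bases separate it from Ptgs2, which is read from the other strand.

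The mature miR-155 strands and their hairpin are shown because Mir155hg was one of the 2 members with a change above 5 on the log2 scale. The hairpin lies within an exon of Mir155hg, at chr16:84714140-84714204 on the plus strand. In the mature strands, from RefSeq on GRCm38.p6, the capitals mark the seed, bases 2 to 8, which pairs with target messenger RNAs, and in the hairpin they mark the mature strands. The seed of miR-155-5p, UAAUGCU, was found in 1 of the 1679 mature mouse microRNA names of the same table, that of miR-155-5p itself.
mmu-miR-155-5p: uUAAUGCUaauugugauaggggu
mmu-miR-155-3p: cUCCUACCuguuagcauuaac
Mir155 hairpin: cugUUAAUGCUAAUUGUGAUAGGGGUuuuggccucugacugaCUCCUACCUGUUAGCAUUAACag

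The 4 snoRNA hosts held 24 annotated snoRNA genes: 10 in Gas5, 8 in Snhg1, 5 in Snhg12 and 1 in Snhg15. Letters of box C (TGATGA) and box D (CTGA), the marks of the box C/D class that guides methylation, were both found in 14 of the 24, with 8 in Gas5, 5 in Snhg1, 1 in Snhg12 and 0 in Snhg15. The box ACA end of the other class, which guides the change of uridine to pseudouridine, was searched only in genes named Snora. It was found in 4, with 3 in Snhg12 and 1 in Snhg15, and the other snoRNA genes were not searched for it. One pair of each class is printed as examples, from the GENCODE M21 transcripts on GRCm38, with those letters in capitals.
Gm22680 in Snhg1, chr19:8725341-8725409, plus strand: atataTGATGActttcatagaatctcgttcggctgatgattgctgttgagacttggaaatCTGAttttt
Gm23212 in Gas5, chr1:161036682-161036741, plus strand: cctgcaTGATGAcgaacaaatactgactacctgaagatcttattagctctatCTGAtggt
Snora61 in Snhg12, chr4:132310240-132310369, plus strand: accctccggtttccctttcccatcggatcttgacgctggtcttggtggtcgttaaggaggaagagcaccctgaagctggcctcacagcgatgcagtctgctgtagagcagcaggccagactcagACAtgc
Snora9 in Snhg15, chr11:6528033-6528165, minus strand: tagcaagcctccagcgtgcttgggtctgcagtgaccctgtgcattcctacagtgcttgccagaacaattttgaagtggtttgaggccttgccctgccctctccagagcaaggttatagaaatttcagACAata

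**Figure D1:**
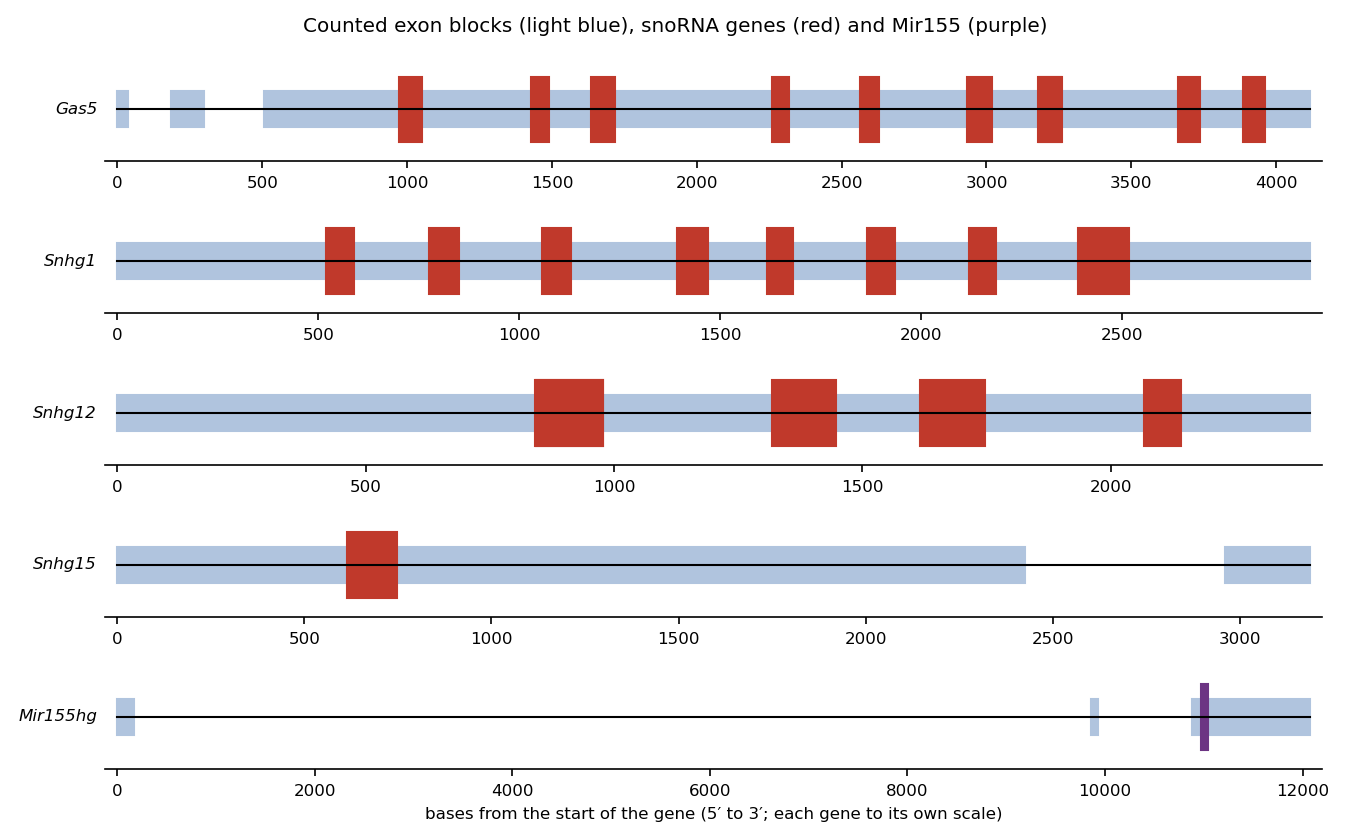
Map of the 5 host genes from start to end, each to its own scale in bases. Light blue boxes are the merged exon blocks over which fragments were counted, red boxes are snoRNA genes and the purple box is Mir155. Gas5 shows 9 red boxes for 10 genes and Snhg12 4 for 5, since a pair of annotated genes overlaps in each.

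All 24 snoRNA genes and Mir155 lay over a counted exon block of their host on the same strand. Fragments that overlapped 2 genes had been left out of the counts, and all 24 snoRNA genes as well as Mir155 were at 0 counts in all 16 samples. The values below are therefore those of the host transcripts outside these stretches. In Snhg1 and Snhg12 1 counted block ran over the whole gene. Since the snoRNAs lie in introns, the blocks of the 4 snoRNA hosts took in intron sequence, and spliced and unspliced RNA cannot be told apart in their values. The stretches shared with another gene on the same strand made up 17.8% of the exonic length of Gas5, 21.0% of Snhg1, 19.6% of Snhg12, 5.02% of Snhg15 and 4.54% of Mir155hg. In Neat1 and Malat1 the share was 1.85% and 1.23%, and in Ptgs2os2 it was 0. Mature miR-155 and the snoRNAs themselves were not measured.

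The deposited counts summed to between 18449388 and 46215853 per sample. The marker genes matched the macrophage label, since all 7 macrophage markers were above 1 CPM (counts scaled to RLE-adjusted library size) in every group, with a summed level of 33850 to 45060 CPM per sample. Markers of epithelial or 4T1 cells summed to at most 1.45 CPM, those of neutrophils to at most 0.814, of B cells to at most 0.233, of T and NK cells to at most 0.051 and of fibroblasts to between 4.95 and 20.4. The 4 dendritic cell markers summed to 8.53 and 12.7 CPM in the 2 h samples against 0.785 to 2.28 elsewhere, nearly all of it Zbtb46, with Flt3 at 0 in the 2 h samples. On a principal component analysis the 2 h samples stood apart on the second component, at 44.05 and 50.02 against -15.8 to 1.69 in the other samples. DMEM replicate 1 stood closer to the CM groups on the first component, at 56.6 against 67.3 to 68.4 in the other 4 samples without CM. Results that rest on it are given with and without it.

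**Figure D2:**
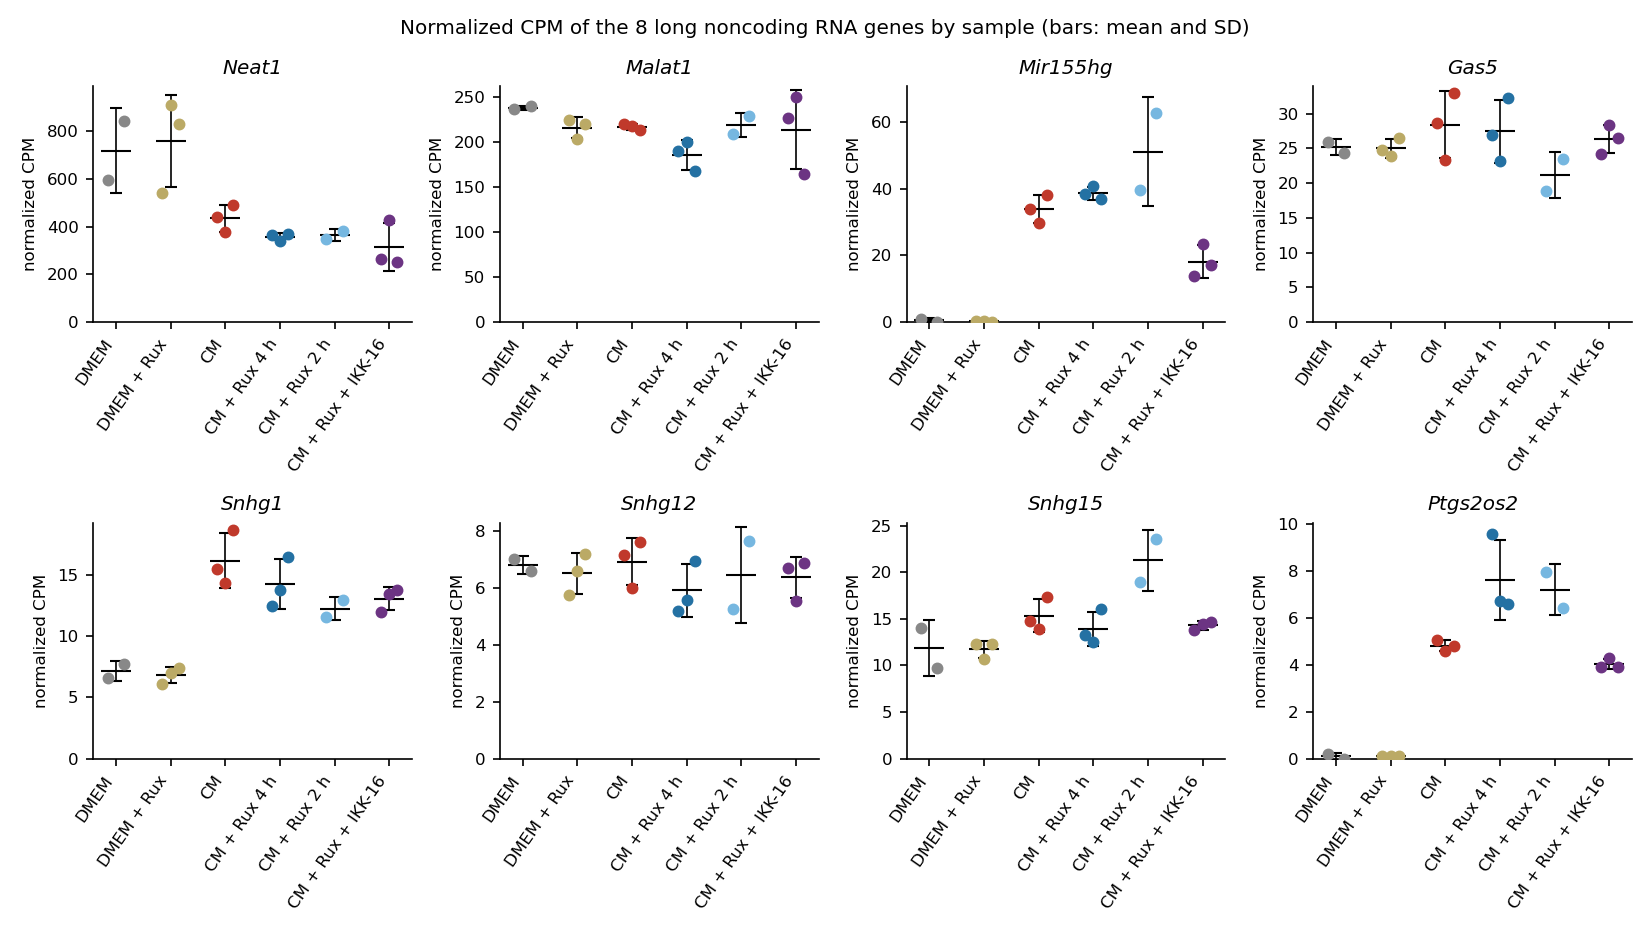
Normalized CPM of each of the 8 genes (vertical axes, each from 0) in the 6 groups. Points are samples, and the bars give the mean and SD. Mir155hg and Ptgs2os2 lie below 1 in every DMEM and DMEM + Rux sample, and Neat1 is higher in all 5 samples without CM than in the 11 with it.

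CPM values below are scaled by relative log expression (RLE). In CM against DMEM, the question was whether tumor-derived factors change these transcripts. Mir155hg, Ptgs2os2 and Snhg1 were higher and Neat1 was lower in CM, and Malat1, Gas5, Snhg12 and Snhg15 did not pass. A gene was called at an adjusted p under 0.05 (Benjamini-Hochberg over all genes tested, edgeR's quasi-likelihood test) with a log2 fold change beyond 0.5. By this rule 4 of the 8 members were called, where 45.0% of all genes tested were, so the share of members called was close to the background. The higher calls were 3 of 8 against 20.9% of all genes, and the lower call was 1 of 8 against 24.1%. The median log2 fold change was 0.27 over the members and -0.0050 over all genes tested.

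Neat1 ranked 1 among the 471 lncRNA genes tested by mean CPM over the samples without CM and 2 over those with it. It had 595 and 845 CPM in DMEM, 542, 910.1 and 829 in DMEM + Rux, and 440.2, 378 and 489 in CM. It had 367, 341 and 368 CPM in CM + Rux, 347 and 382 in CM + Rux 2 h, and 265, 430.2 and 251 in CM + Rux + IKK-16. Both DMEM samples were above all 3 CM samples. In such bulk samples fewer cells with a transcript and less of it per cell cannot be told apart. The log2 fold change in CM against DMEM was -0.72 ± 0.24 (SE), a 1.65-fold lower level (adjusted p = 0.016). The call rested on single samples: without DMEM replicate 2 the value was -0.45 (adjusted p = 0.21), and without CM replicate 2 it was -0.63 (adjusted p = 0.057).

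In order of mean level, Neat1 was highest in DMEM + Rux (760.5 ± 194 CPM, SD, n = 3) and DMEM (719.9 ± 177, n = 2), whose ranges overlapped. CM (436 ± 55.8, n = 3) followed without overlap with DMEM. The ranges of CM, CM + Rux 2 h, CM + Rux and CM + Rux + IKK-16 overlapped from each to the next, down to 316 ± 99.5 (n = 3) in the last. Its short and long transcripts share their start and were counted together, so they cannot be told apart in these values.

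Malat1, its neighbor, had 237 and 240.1 CPM in DMEM, 225, 203 and 221 in DMEM + Rux and 219.9, 218 and 213 in CM. It had 191, 199.97 and 168 CPM in CM + Rux, 209.8 and 229 in CM + Rux 2 h, and 227, 250.2 and 165 in CM + Rux + IKK-16. Malat1 thus moved over a narrow range, and the values of CM + Rux + IKK-16 spread across those of all other groups. The log2 fold change in CM against DMEM was -0.14 ± 0.13 (SE) (95% interval -0.42 to 0.15, adjusted p = 0.39). Per kilobase of exon, Neat1 averaged 34.7 CPM and Malat1 34.2 in DMEM. The 2 DMEM samples differed in order, with Neat1 at 28.6 and 40.7 against Malat1 at 33.9 and 34.4. In CM, Neat1 averaged 21.0 and Malat1 31.1, and Neat1 was lower in each sample. The full exonic length of Neat1 was used although its short transcripts were counted too, so the levels of the genes are not strictly comparable.

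The number of Neat1 fragments per Malat1 fragment was 2.51 and 3.52 in DMEM and 2.41, 4.47 and 3.75 in DMEM + Rux. It was 2.002, 1.73 and 2.30 in CM and 1.17 to 2.19 in the other 8 samples with CM. The ratio was thus higher in each of the 5 samples without CM than in any of the 11 with it, a comparison within samples that does not depend on scaling. Together the 8 members held 20.6% to 25.9% of all fragments of lncRNA genes in the samples without CM and 13.0% to 19.1% in those with it. Both RNAs have forms whose end is not a poly(A) tail, and the libraries were made by mRNA selection, so these levels need not match those in the cell.

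Mir155hg was nearly silent without CM, with 33 and 4 fragments in DMEM, or 0.975 and 0.164 CPM, and with 4, 15 and 1 fragments in DMEM + Rux, or 0.185, 0.335 and 0.0324 CPM. It had 33.8, 29.7 and 38.0 CPM in CM, 38.2, 40.7 and 36.8 in CM + Rux, and 39.4 and 62.6 in CM + Rux 2 h. In CM + Rux + IKK-16 it had 13.8, 23.4 and 17.0 CPM. The CM + Rux + IKK-16 samples lay above all samples without CM and below all other samples with it. In CM against DMEM the log2 fold change was 5.75 ± 0.45 (SE), a 54.0-fold higher level (adjusted p = 1.6e-07). Its size depended on DMEM replicate 1, since it was 7.65 without that sample and 5.11 without DMEM replicate 2.

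In order of mean level, Mir155hg was highest in CM + Rux 2 h (51.0 ± 16.4 CPM, n = 2), CM + Rux (38.6 ± 1.97, n = 3) and CM (33.8 ± 4.14, n = 3), whose ranges overlapped from each to the next. CM + Rux + IKK-16 (18.1 ± 4.91, n = 3) followed without overlap, and then DMEM (0.57 ± 0.574, n = 2) and DMEM + Rux (0.184 ± 0.151, n = 3), which overlapped. Without the samples with CM, neither Mir155hg nor Ptgs2os2 would have passed the filter, 1 CPM of total counts in 2 samples. That both were tested therefore already depended on their levels with CM. Among the 471 lncRNA genes tested, Mir155hg had the 5th and Ptgs2os2 the 8th largest log2 fold change in CM against DMEM.

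Ptgs2os2 had 7 and 0 fragments in DMEM and 2, 4 and 3 in DMEM + Rux, all under 0.21 CPM. It had 5.06, 4.58 and 4.81 CPM in CM, 9.58, 6.71 and 6.57 in CM + Rux, 7.95 and 6.43 in CM + Rux 2 h, and 3.89, 4.28 and 3.903 in CM + Rux + IKK-16. The order of the groups with CM was CM + Rux (7.62 ± 1.70, n = 3) and CM + Rux 2 h (7.19 ± 1.08, n = 2), which overlapped, then CM (4.81 ± 0.244, n = 3), then CM + Rux + IKK-16 (4.03 ± 0.222, n = 3), the last pair each without overlap with the group before. The log2 fold change in CM against DMEM was 5.29 ± 0.43 (SE) (adjusted p = 1.9e-07), and without DMEM replicate 2 it was 4.51. Without DMEM replicate 1, DMEM was left with a sample at 0, and against the limit of 3 fragments in that sample the level in CM was at least 39.2-fold higher.

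Ptgs2, the coding neighbor, had 10.1 and 6.02 CPM in DMEM, 6.51, 6.14 and 6.96 in DMEM + Rux, and 3329.6, 3979 and 2511 in CM. It had 3639.8, 4191 and 2435 CPM in CM + Rux, 1709.8 and 1035 in CM + Rux 2 h, and 949, 1591 and 863 in CM + Rux + IKK-16. The 2 h samples were therefore low for Ptgs2 but among the highest for Ptgs2os2. In CM + Rux 2 h against CM + Rux the log2 fold change was -1.32 ± 0.32 (SE) for Ptgs2 (adjusted p = 0.0053) and -0.079 ± 0.24 for Ptgs2os2 (95% interval -0.59 to 0.44, adjusted p = 0.82). Fragments of Ptgs2 per fragment of Ptgs2os2 were 161 and 215 in CM + Rux 2 h, 371 to 625 in CM + Rux, 522.5 to 869.7 in CM and 221 to 371.5 in CM + Rux + IKK-16. This ratio was lower in both 2 h samples than in the other 9 samples with CM, and the difference between the responses of the genes was not tested.

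**Figure D3:**
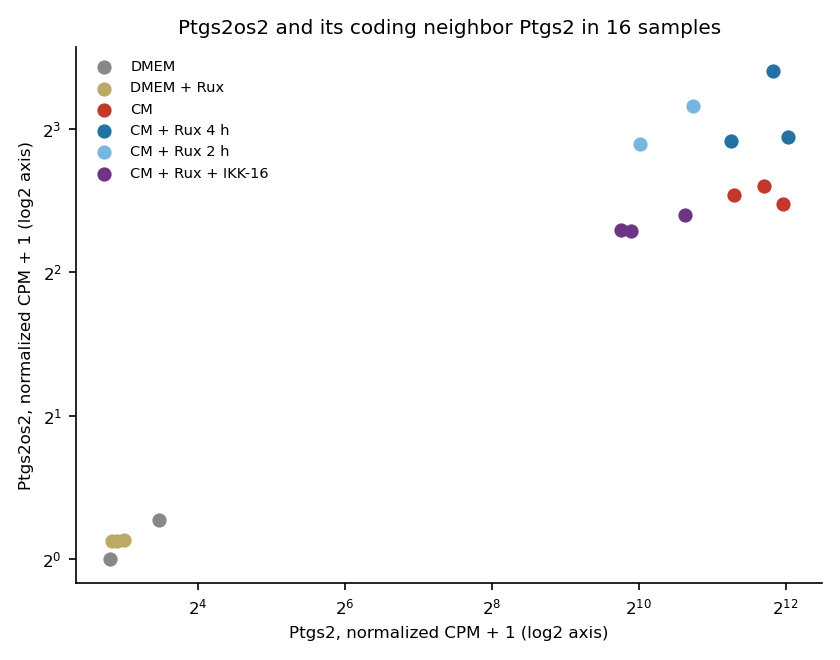
Ptgs2os2 against Ptgs2 in the 16 samples, as normalized CPM plus 1 on log2 axes. The samples without CM sit at the lower left, the CM + Rux + IKK-16 samples are lowest for Ptgs2os2 among those with CM, and the 2 h samples lie to the left of the CM + Rux samples at a similar height.

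The starts of Mir155hg, Ptgs2os2 and Snhg1, the members called higher in CM, are printed from RefSeq on GRCm38.p6, from 250 bases before to 50 after the annotated start. Windows were found for 7 of the 8 members. The motifs searched on both strands were κB (by its name, with degenerate letters), AP-1 (TGA and TCA around any 1 base) and CRE (TGACGTCA). So were GAS, the element read by STAT factors (TTCNNNGAA), and the E-box (CACGTG). The core promoter element that carries the letters TATAAA is called the TATA box here. It was searched on the gene's own strand alone, and only in a short stretch before the start. A run of 7 or more C or T within 10 bases of the start was searched on the gene's own strand, since such a run is a known feature of many snoRNA host genes and of genes for the translation machinery. Capitals mark these matches.
Mir155hg, chr16:84712773-84713072, plus strand: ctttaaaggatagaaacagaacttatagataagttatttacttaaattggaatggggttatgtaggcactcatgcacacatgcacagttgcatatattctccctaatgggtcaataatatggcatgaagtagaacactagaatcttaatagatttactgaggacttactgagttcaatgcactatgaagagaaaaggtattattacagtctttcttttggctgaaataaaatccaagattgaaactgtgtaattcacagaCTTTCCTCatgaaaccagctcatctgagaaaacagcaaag
Ptgs2os2, chr1:150164899-150165198, minus strand: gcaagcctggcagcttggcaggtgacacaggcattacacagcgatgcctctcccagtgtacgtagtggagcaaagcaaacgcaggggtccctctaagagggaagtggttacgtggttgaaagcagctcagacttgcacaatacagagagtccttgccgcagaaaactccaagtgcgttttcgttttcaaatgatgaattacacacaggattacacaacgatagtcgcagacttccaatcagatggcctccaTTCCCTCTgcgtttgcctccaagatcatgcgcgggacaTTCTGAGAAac
Snhg1, chr19:8723237-8723536, plus strand: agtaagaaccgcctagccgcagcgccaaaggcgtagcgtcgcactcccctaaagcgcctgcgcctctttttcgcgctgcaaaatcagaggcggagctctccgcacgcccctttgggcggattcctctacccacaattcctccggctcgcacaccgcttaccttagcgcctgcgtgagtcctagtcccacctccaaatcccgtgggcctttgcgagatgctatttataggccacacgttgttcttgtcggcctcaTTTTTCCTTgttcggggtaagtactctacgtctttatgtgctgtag

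In these letters, a GAS match was found in the Ptgs2os2 window, at bases 40 to 48 downstream of the annotated start. Of the 32851 windows of all genes, 8.30% held a GAS match. A CRE match was found in the windows of Snhg15 and of 1 of 2 Gas5 starts (1.79% of all windows), and an E-box match in Snhg15 (7.15%). No member window held a κB match (8.46% of all windows) or an AP-1 match (7.81%). None held a TATA match in the short stretch searched for it (1.99%), and the same letters elsewhere or on the other strand were not counted. The run of C or T was found in Mir155hg, Snhg1, Snhg12 and Ptgs2os2, against 20% of all windows, so that it was shared by 2 of the snoRNA hosts and by both of the strongly higher members. The RefSeq start of Mir155hg lies 9856 bases downstream of the first base of the Ensembl gene, so the window covers the later start alone. The stretch from 15 bases before to 25 after the start of both snoRNA hosts is set out below, with the run in capitals, which begins at different distances from the start.
Snhg1 start, plus strand of chr19: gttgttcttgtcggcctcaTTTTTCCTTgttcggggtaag
Snhg12 start, plus strand of chr4: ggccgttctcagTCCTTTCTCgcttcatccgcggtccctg

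Of the snoRNA hosts, Snhg1 was called higher in CM. It had 6.56 and 7.74 CPM in DMEM, 6.10, 6.97 and 7.38 in DMEM + Rux, 15.5, 14.4 and 18.7 in CM and 12.4, 13.8 and 16.5 in CM + Rux. It had 11.6 and 12.9 CPM in CM + Rux 2 h and 12.0, 13.5 and 13.8 in CM + Rux + IKK-16. All 11 samples with CM were above all 5 without it. The log2 fold change in CM against DMEM was 1.18 ± 0.15 (SE), a 2.27-fold higher level (adjusted p = 1.5e-05). By mean level the 4 groups with CM overlapped from each to the next, from 16.2 ± 2.22 (n = 3) in CM down to 12.2 ± 0.948 (n = 2) in CM + Rux 2 h.

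Gas5, the host with the most snoRNAs, stayed between 18.8 and 33.0 CPM in all 16 samples. It had 26.0 and 24.4 CPM in DMEM and 28.7, 23.4 and 33.0 in CM, which overlapped, and the log2 fold change was 0.17 ± 0.15 (SE) (95% interval -0.16 to 0.50, adjusted p = 0.35). Its lowest mean was in CM + Rux 2 h, with 18.8 and 23.5 CPM. Snhg12 stayed between 5.21 and 7.65 CPM, and the ranges of its 6 groups overlapped from each to the next in order of mean. Its log2 fold change in CM against DMEM was 0.019 ± 0.18 (SE) (95% interval -0.37 to 0.41, adjusted p = 0.94).

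Snhg15 had 13.98 and 9.74 CPM in DMEM, 12.3, 10.7 and 12.3 in DMEM + Rux and 14.8, 13.9 and 17.4 in CM. It had 13.3, 12.5 and 16.03 CPM in CM + Rux, 18.9 and 23.6 in CM + Rux 2 h, and 13.8, 14.5 and 14.7 in CM + Rux + IKK-16. DMEM replicate 1 lay within the range of CM, and the log2 fold change in CM against DMEM was 0.36 ± 0.16 (SE) (adjusted p = 0.063). Without DMEM replicate 1 it was 0.65 (adjusted p = 0.0091), which passed. Under scaling by total counts alone the log2 fold changes in CM against DMEM were -0.14 for Gas5 and -0.29 for Snhg12, so that their direction is not given. RLE scaling moved the median of all genes in this comparison by 0.31 relative to total counts, and the directions of the 4 called members were the same under both.

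**Figure D4:**
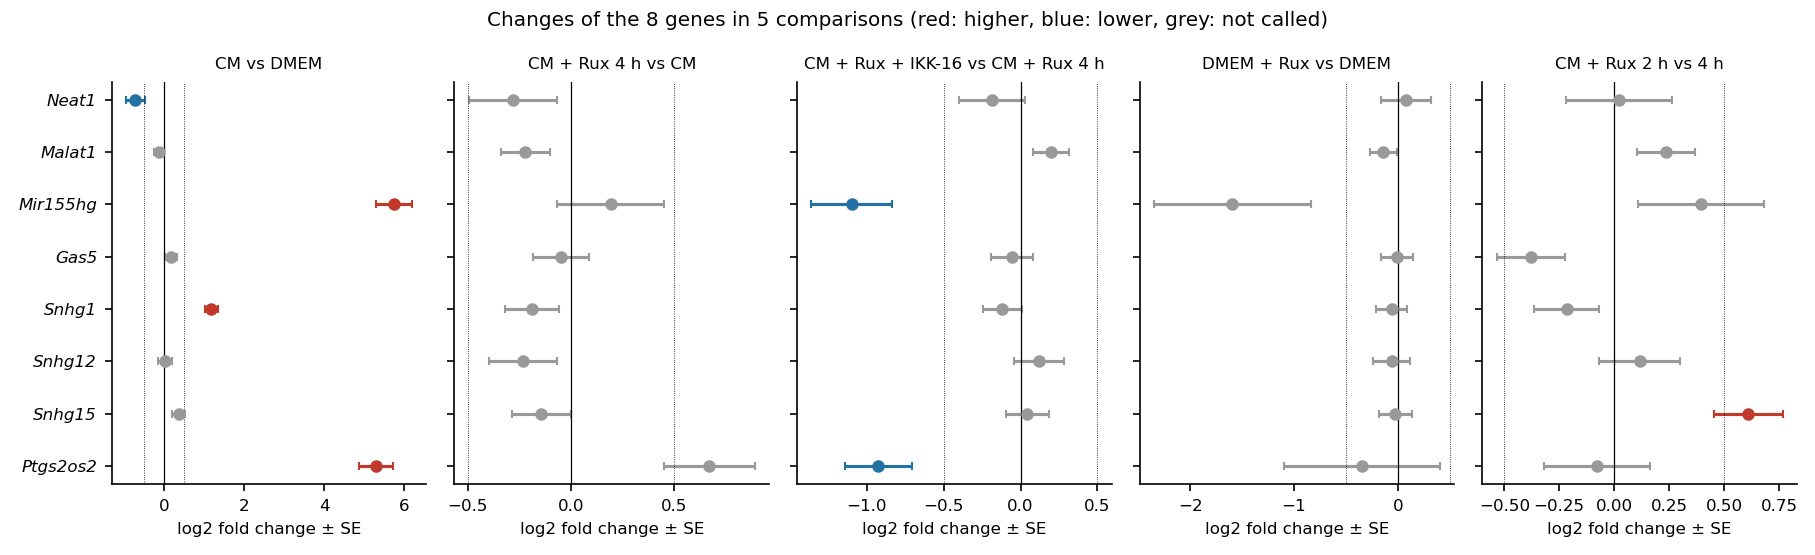
Log2 fold change of each member (points) with its SE (bars) in 5 comparisons. Axes differ between panels, dotted lines mark 0.5 in either direction, red is called higher, blue called lower and grey not called. The changes in CM against DMEM reach 5.75, while the changes called in the other panels are -1.10, -0.93 and 0.61.

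In CM + Rux against CM, which asks what JAK inhibition changes in the presence of tumor factors, 0 of the 8 members were called by edgeR, where 3.33% of all genes tested were (1.20% higher and 2.13% lower). At an unadjusted p under 0.05 there was 1 member, Ptgs2os2, and DESeq2 called that 1. All 3 CM + Rux samples of Ptgs2os2 were above all 3 CM samples, with a log2 fold change of 0.67 ± 0.22 (SE) (adjusted p = 0.11). Samples of these groups with the same replicate number deviated together, and with the replicate number as a block the value was 0.65 (adjusted p = 0.028), which passed. The block also raised the calls among all genes from 412 to 745. With DESeq2 the value was 0.67 (adjusted p = 0.014), and without the filter on low counts it was 0.67 (adjusted p = 0.043). Without DMEM replicate 1 or DMEM replicate 2, which shape the shared estimate of the spread, the adjusted p was 0.024 each. The call therefore depended on the analysis, while the direction did not.

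Among the other members, Neat1 and Malat1 had no overlap between CM + Rux and CM, with log2 fold changes of -0.28 ± 0.21 (SE) (95% interval -0.74 to 0.18, adjusted p = 0.65) and -0.22 ± 0.12 (95% interval -0.47 to 0.033, adjusted p = 0.42). Both were lower in CM + Rux in 3 of 3 same-numbered pairs, and with the replicate block the adjusted p was 0.42 and 0.23. With these groups alone and the block, an alternative chosen after seeing the data, it was 0.00058 and 0.0017 at log2 fold changes of -0.27 and -0.22, within the fold limit of 0.5, so that neither was called. Gas5, Snhg1, Snhg12 and Snhg15 were also lower in 3 of 3 pairs each, with adjusted p from 0.12 to 0.60 in that fit. How many of all genes tested were lower in 3 of 3 pairs, or had no overlap between these groups, was not counted. The pair counts and the lack of overlap are therefore a description only. Mir155hg differed by 0.19 ± 0.26 (95% interval -0.36 to 0.75), and the snoRNA hosts by -0.23 to -0.049. The median was -0.17 over the members and 0.0071 over all genes tested.

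Adding IKK-16 to CM + Rux asks which transcripts depend on IKK under JAK inhibition. Mir155hg and Ptgs2os2, the members that were nearly silent without CM, were called lower, 2 of 8 where 3.66% of all genes tested were called lower, 4.07% higher and 7.74% in either direction. Since the members were chosen with earlier results of these data known, this count is a description only. Mir155hg was 2.14-fold lower, with a log2 fold change of -1.10 ± 0.26 (SE) (adjusted p = 0.013) and 3 of 3 samples below all CM + Rux samples. The call was lost with DESeq2 (-1.10, adjusted p = 0.055) and without CM + Rux + IKK-16 replicate 1 (-0.94, adjusted p = 0.065). Ptgs2os2 was 1.90-fold lower (-0.93 ± 0.22, adjusted p = 0.012), again without overlap, and the call was lost without CM + Rux replicate 1, its highest sample (-0.72, adjusted p = 0.062). Ptgs2 was 3.02-fold lower (-1.59 ± 0.28, adjusted p = 0.0024).

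In the same comparison the other 6 members overlapped between the groups. The share of all genes tested without overlap was not counted, so overlap is a description only, here and in the other comparisons. Their log2 fold changes ran from -0.18 ± 0.21 (SE) for Neat1 to 0.20 ± 0.12 for Malat1, with adjusted p from 0.29 to 0.88. The 95% intervals of Gas5, Snhg1, Snhg12 and Snhg15 lay within -0.39 to 0.46. The levels of Mir155hg and Ptgs2os2 with IKK-16 remained far above those without CM.

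Against CM alone, CM + Rux + IKK-16 was called lower for 1 of 8 members, Mir155hg, where 6.13% of all genes were lower, 6.60% higher and 12.7% called in either direction. The log2 fold change of Mir155hg was -0.91 ± 0.26 (SE) (adjusted p = 0.024), without overlap. That call was lost with DESeq2 (adjusted p = 0.10) and without any of 4 samples, CM replicate 1 (adjusted p = 0.054), CM replicate 3 (0.073), CM + Rux + IKK-16 replicate 1 (0.11) and replicate 3 (0.076). Ptgs2os2 was at -0.26 ± 0.22 (95% interval -0.73 to 0.22, adjusted p = 0.44) although its 3 samples were below the 3 of CM, and Ptgs2 was at -1.53 ± 0.28 (adjusted p = 0.0016). Neat1 was at -0.47 ± 0.21 (adjusted p = 0.14) and passed without CM + Rux + IKK-16 replicate 2 (-0.75, adjusted p = 0.015). This comparison and that with CM + Rux share the CM + Rux + IKK-16 samples.

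Between the labels of 2 h and 4 h in CM + Rux, 1 of 8 members was called, Snhg15, against 12.6% of all genes higher, 10.7% lower and 23.3% in either direction. Both 2 h samples of Snhg15 were above every other sample of the series. The log2 fold change was 0.61 ± 0.16 (SE) (adjusted p = 0.0073), and without 2 h replicate 3 it was 0.45 (adjusted p = 0.10). Gas5 was at -0.38 ± 0.16 (adjusted p = 0.068), opposite in sign to Snhg15. The dendritic cell markers of the 2 h samples summed to 8.53 and 12.7 CPM, nearly all of it Zbtb46, against 2.16 to 2.19 in CM + Rux. This sum and the place of the 2 h samples on the second principal component moved with the values above, and their part in them was not tested.

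Without CM, ruxolitinib changed 0 of the 8 members by edgeR, with 0 at an unadjusted p under 0.05 and 0 by DESeq2, where 0.970% of all genes were called. The median was -0.060, and 6 of the 8 values lay between -0.14 and 0.080. Mir155hg was at -1.59 ± 0.75 (SE) (adjusted p = 0.96), and without DMEM replicate 1, which held 33 of the 37 fragments of DMEM, it was at 0.30. Ptgs2os2 had 7 fragments in DMEM and 9 in DMEM + Rux, too few for a comparison. The ruxolitinib effect in CM was not shown to differ from that in DMEM for any member by edgeR, with 0 called, 1 at an unadjusted p under 0.05 (Mir155hg, adjusted p = 0.51) and 0 by DESeq2. Of all genes 0.412% were called there (0.234% higher and 0.178% lower), 51 genes, which became 444 with the replicate number as a block.

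**Figure D5:**
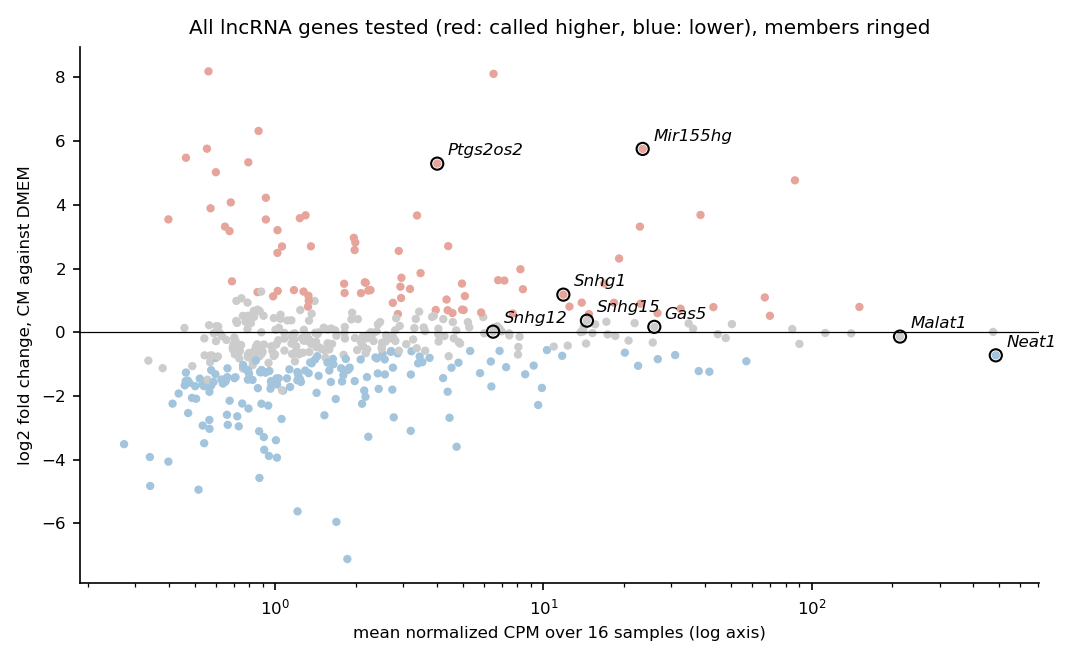
Log2 fold change in CM against DMEM of the 471 lncRNA genes tested, against their mean normalized CPM (log axis). Red points were called higher, blue lower and grey not called, and the 8 members are ringed and named. In means over all 16 samples the members lie in the upper range of abundance, with Neat1 and Malat1 at the far right.

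Set among all 471 lncRNA genes by mean CPM, the members ranked between 2 and 81 over the samples with CM. Over the samples without CM, Mir155hg ranked 443 and Ptgs2os2 459, while the other 6 members ranked between 1 and 73. In CM against DMEM 165 of the 471 fell by the same rule and 82 rose, where 24.1% of all genes tested fell and 20.9% rose. The median log2 fold change of these lncRNA genes was -0.38 against -0.0050 over all genes tested. In CM + Rux against CM 2 of the 471 were higher and 7 lower, where 1.20% and 2.13% of all genes tested were. With IKK-16 against CM + Rux 22 of the 471 were higher and 17 lower, where 4.07% and 3.66% of all genes tested were.

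Related genes were followed as lists, by counts and medians, and no list was tested as a set. The counts stand beside the shares of all genes tested under the main scaling. In CM against DMEM 20.9% were called higher and 24.1% lower. With IKK-16 against CM + Rux these shares were 4.07% and 3.66%, and in CM + Rux against CM 1.20% and 2.13%. Of 18 other noncoding snoRNA hosts listed, 16 were matched and 10 tested. In CM against DMEM 2 of them were higher, Snhg3 (0.70 ± 0.22, adjusted p = 0.013) and Snhg5 (0.62 ± 0.21, adjusted p = 0.018), and 0 lower, with a list median of 0.29. When counts were scaled by their totals alone, 0 were higher and 2 lower, with a median of -0.018. Of 28 protein-coding snoRNA hosts, most of them ribosomal protein and translation factor genes, 2 were higher, the chaperone genes Hspa8 (1.25 ± 0.11, adjusted p = 5.7e-07) and Cct6a (0.79 ± 0.081, adjusted p = 1.8e-06), and 0 lower, with a median of 0.057, and under total count scaling 1 was higher and 4 lower. Snhg1 thus had a larger log2 fold change than any other tested noncoding host on the list. With IKK-16 against CM + Rux, 0 of the 10 noncoding and 0 of the 28 coding hosts were called by edgeR or DESeq2, with 0 at an unadjusted p under 0.05 and a change beyond 0.5, and medians of 0.10 and -0.082.

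Proteins that assemble or carry snoRNAs (18 tested) were higher for 4 and lower for 2 in CM against DMEM, with a median of 0.16. The assembly factor Nufip1 (1.51 ± 0.14, adjusted p = 1e-06) was the most raised, followed by Ruvbl2, Nop58 and Fbl, the methyltransferase of box C/D particles. Pih1d1 (-0.85 ± 0.11, adjusted p = 2e-05) and Znhit6, both assembly factors, were lower. Scaled by total counts, 2 were higher and 5 lower. Of 15 factors of nonsense-mediated decay, the pathway known to degrade spliced snoRNA host transcripts, 4 were higher, led by the exon junction gene Magohb (0.93 ± 0.25, adjusted p = 0.005) with Magoh, Casc3 and Smg8, and 1 was lower, Upf3a (-0.72 ± 0.16, adjusted p = 0.0012). Their median was 0.37, and under total count scaling 1 was higher and 2 lower. With IKK-16 against CM + Rux 0 genes of either list were called by edgeR or DESeq2, with 0 at an unadjusted p under 0.05 and a change beyond 0.5.

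Of 12 genes for paraspeckle proteins, which bind Neat1, 1 was lower with IKK-16 against CM + Rux, Pspc1 (-0.67 ± 0.19, adjusted p = 0.025), with a list median of -0.21. Of 4 other microRNA host genes tested, Mir22hg (1.09 ± 0.16, adjusted p = 4.2e-05) and Mir142hg were higher and Mir99ahg (-2.67 ± 0.22, adjusted p = 2.4e-07) was lower in CM against DMEM, with a median of 0.50, and by total count scaling 1 was higher and 1 lower.

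Of 9 genes that cut microRNAs or load them, Ago3 (0.67 ± 0.19, adjusted p = 0.0072) was higher, and Ago4 (-1.19 ± 0.091, adjusted p = 1.3e-07) and the nuclease gene Drosha were lower in CM against DMEM, with a median of 0.096, and by total count scaling 0 were higher and 3 lower. Of 12 genes known as targets of miR-155, 5 were higher and 2 lower, with a median of 0.42. Socs1 (4.32 ± 0.18, adjusted p = 1e-09), the feedback inhibitor of JAK signaling, rose the most, with Cebpb, Jarid2, Il13ra1 and Tab2, while Trp53inp1 (-2.45 ± 0.24, adjusted p = 1.2e-06) and Bach1 were lower. Under total count scaling 5 were higher and 4 lower. With IKK-16 against CM + Rux, where Mir155hg was lower, 1 of these targets was higher, Inpp5d (0.98 ± 0.27, adjusted p = 0.026), which encodes the phosphatase SHIP1, and 2 were lower, Socs1 (-1.56 ± 0.12, adjusted p = 9.5e-06) and Tab2, with a median of -0.23. Scaled by total counts, 2 were higher and 1 lower.

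Of 14 other well-known lncRNAs tested, 3 were higher and 3 lower in CM against DMEM, with a median of -0.019. The antisense gene Ptgs2os (6.32 ± 0.89, adjusted p = 4.5e-05), also named for Ptgs2, AW112010 and Morrbid were higher, and Jpx (-1.44 ± 0.44, adjusted p = 0.011), Trp53cor1 and Ftx were lower. Under total count scaling 3 were higher and 6 lower. With IKK-16 against CM + Rux, Pvt1 (1.16 ± 0.30, adjusted p = 0.02) was higher and AW112010 (-1.78 ± 0.42, adjusted p = 0.012) lower. In CM + Rux against CM, 2 genes of all 9 lists were called, Ago3 (0.68 ± 0.16, adjusted p = 0.032), which was higher, and the miR-155 target Il13ra1 (-0.69 ± 0.16, adjusted p = 0.021), which was lower. With the replicate block 3 of the miR-155 targets were lower and 1 of the other lncRNAs was higher. Genes named here besides the largest change of a list were chosen after their values were seen.

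Likeness of pattern was measured as Pearson's r of log2 CPM over the 16 samples against every gene tested, as a description. For the strongly inducible members it mostly reflects the split between samples with and without CM. The genes most like Mir155hg were Asb6 (0.996), Bcl2a1d (0.995) and Jak2 (0.994), and those most like Ptgs2os2 were Stx6 (0.995), Rab11fip1 (0.989) and Slc44a1 (0.989). Snhg1 was most like Manbal (0.976), Mmp14 (0.968) and Msr1 (0.966), and Neat1 most like Rasal1 (0.942), Kiss1r (0.933) and Rasa1 (0.920). Snhg15 was most like H2-K1 (0.928), AC124231.3 (0.909) and Gm7353 (0.906), and Gas5 most like Akap8 (0.897), Gt(ROSA)26Sor (0.891) and Snapc4 (0.876). The members with the narrowest ranges had the weakest likeness, Snhg12 to 2700038G22Rik (0.772), Polh (0.764) and Col11a2 (0.757), and Malat1 to Tspan13 (0.758), Hhat (0.728) and Hap1 (0.728).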

How the data were processed

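RNA of 16 BMDM samples was sequenced by the authors from stranded mRNA libraries. Per the labels and methods, reads were trimmed with Trimmomatic 0.33, aligned to GRCm38 with HISAT2 2.1.0 and counted with featureCounts 1.6.2 against Ensembl 100, by strand, without fragments that overlapped several genes. The deposited values are raw fragment counts per gene. A gene was kept where 2 or more samples exceeded 1 CPM of total counts, and the kept counts were then RLE-scaled. One model of all 16 samples and 6 groups was fitted with edgeR 4.0.16 (quasi-likelihood test, limma 3.58.1, R 4.3.3), and checked on simulated data. Calls needed an adjusted p under 0.05 and a log2 fold change beyond 0.5. SEs are the log2 fold change divided by the root of F. DESeq2 1.42.0, TMM, total counts, other filters and thresholds, subsets of groups, the replicate number as a block and leaving out each sample were alternatives. Symbols, exons and biotypes come from GENCODE M21. Figures were drawn with matplotlib 3.10.9.

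Same-numbered samples deviated together in all 18 pairs of the 6 pairs of groups that share 3 numbers (r = 0.151 to 0.756 after the group means were removed), so the numbers were taken to pair samples there, from the data and not the labels. No 2 replicates were copies (chi-square per degree of freedom 14.2 to 54.4). The members and the 9 gene lists were chosen with earlier results of these data known. Genes named are the members, Ptgs2, the largest called change of each list in each direction, and the 3 genes most like each member, while other list genes named were chosen after their values were seen. The paraspeckle list in CM against DMEM is not reported here. Counting error alone covers the limit of 3 fragments set for a count of 0.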

Additional observations from a re-analysis of the deposited data

How the results depend on the processing

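With small groups, many calls sat near the threshold, and values near 0 changed sign easily. Mir155hg, Ptgs2os2 and Snhg1 in CM against DMEM kept their call under every alternative run, and Neat1 under all but the omission of single samples. Neither Mir155hg nor Ptgs2os2 would have passed the filter of 1 CPM without the samples with CM, so their kept calls are not separate support. The number of members called in CM + Rux against CM, 0, became 1 without a filter on low counts, with the replicate block, with the groups compared alone and the block (added after seeing the data) and with DESeq2, each time for Ptgs2os2, and was 0 to 1 when single samples were left out. With DESeq2 the 2 members called with IKK-16 against CM + Rux became 1, and the 1 called against CM became 0. Leaving out single samples gave 1 to 2, and 0 to 2, for those comparisons and 0 to 1 for 2 h against 4 h. The block changed no other call of a member.

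Direction changed only for members that were not called, and the cause was not tested. Under total count scaling the log2 fold changes were -0.14 (Gas5) and -0.29 (Snhg12) in CM against DMEM, 0.025 (Gas5) with IKK-16 against CM + Rux, 0.0040 (Gas5) for ruxolitinib in DMEM, 0.086 (Malat1) and 0.0067 (Snhg15) with IKK-16 against CM, and -0.049 (Neat1) in 2 h against 4 h. With the replicate block they were -0.077 (Snhg12) in CM against DMEM, -0.074 (Neat1) and 0.021 (Ptgs2os2) in 2 h against 4 h, and 0.035 (Gas5) for the difference of ruxolitinib effects. With the groups compared alone and the block they were -0.063 (Snhg12), -0.017 (Neat1 in DMEM), 0.16 (Ptgs2os2) and 0.052 (Gas5). Single omissions gave -0.055 to 0.12 for Snhg12 in CM against DMEM and -0.17 to 0.077 for Gas5 in CM + Rux against CM. With IKK-16 against CM + Rux they gave -0.17 to 0.069 for Gas5 and -0.032 to 0.15 for Snhg15, and against CM -0.23 to 0.020 for Gas5 and -0.15 to 0.14 for Malat1. For ruxolitinib in DMEM they gave -0.15 to 0.36 (Neat1), -2.65 to 0.30 (Mir155hg), -0.053 to 0.038 (Gas5), -0.18 to 0.060 (Snhg1), -0.13 to 0.016 (Snhg12), -0.25 to 0.26 (Snhg15) and -1.13 to 4.55 (Ptgs2os2, fitted against a sample at 0 and no bound). In 2 h against 4 h they gave -0.050 to 0.086 (Neat1), -0.16 to 0.38 (Snhg12) and -0.25 to 0.12 (Ptgs2os2). For the difference of ruxolitinib effects they gave -0.17 to 0.084 (Gas5), -0.11 to 2.84 (Mir155hg), -0.41 to 0.11 (Snhg15) and -3.88 to 1.80 (Ptgs2os2).

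Of all genes, 412 were called in CM + Rux against CM. This was 685 without a filter, 745 with the block, 863 with the groups compared alone and the block, and 243 to 486 with single samples left out. Without the fold threshold 1778 in place of 957 were called with IKK-16 against CM + Rux, 2857 in place of 1575 against CM, and 4726 in place of 2883 in 2 h against 4 h. For the difference of ruxolitinib effects, the 51 genes became 349 without a filter, 444 with the block, 329 with the groups alone and the block, 234 with DESeq2, 142 at an adjusted p under 0.1, 90 under total count scaling and 17 to 114 with single samples left out. For ruxolitinib in DMEM 120 became 180 without a filter.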
